A study of Mus musculus with 24 samples.

Results

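The genes described here make and break down heme and move, store or sense iron in mouse liver. They are 10 of the 18820 genes measured. They were chosen by symbol, but with earlier results of these data known, so counts and medians over them are descriptions only. Alas1 and Alas2 stand for heme synthesis, and Hmox1 for heme breakdown. Hamp, Hamp2 and Bmp6 stand for hepcidin and its control, and Trf, Tfrc, Fth1 and Slc40a1 for iron transport and storage. All 10 were measured, each by 1 probe set apart from Fth1, which had 2. The study asked which liver genes respond to obeticholic acid (OCA, also INT-747), an ethyl derivative of chenodeoxycholic acid that activates FXR, the nuclear receptor for bile acids, and whether they need FXR. It held 24 livers in 4 groups of 6, with 1 mouse per array: FXR-/- mice (FXR KO) given OCA, FXR KO mice given vehicle, wild-type (WT) mice given OCA and WT mice given vehicle. Each day for 7 days the mice were gavaged with OCA at 10 mg/kg/day in 1% methyl cellulose or with the methyl cellulose alone. All mice were male, of the C57BL/6 background, fed chow and 9 to 12 weeks old. The labels do not say whether the KO and WT mice were littermates.

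Heme synthesis starts in mitochondria with aminolevulinate synthase, made from Alas1 in liver and most other tissues and from Alas2 in developing red cells. Hepatocytes use much of their heme for cytochrome P450 enzymes, while Kupffer cells, the resident macrophages of the liver, take up old red cells and free the iron from their heme with heme oxygenase (Hmox1). Iron then leaves cells through ferroportin (Slc40a1), stays bound to ferritin (Fth1) or travels in blood on transferrin (Trf), which cells take up through the transferrin receptor (Tfrc). Hepcidin (Hamp), secreted by hepatocytes, makes ferroportin break down, and Bmp6, made mainly by sinusoidal endothelial cells, raises hepcidin when iron is high.

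FXR loss was the factor that went with most of the differences in these genes, and OCA went with none that passed the test. In FXR KO livers Hamp2 was about 3 times, and Hmox1 over 2 times, the WT level, Slc40a1, Bmp6 and Fth1 were higher by less, and Alas2 fell by more than a factor of 2. Hamp, the hepcidin gene proper, did not pass the test, and neither did Alas1, Tfrc or Trf.

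Hamp and Hamp2 are neighbouring copies. The 150 bases before their start sites (RefSeq, GRCm38.p6) are shown because Hamp2 passed the test for FXR loss and Hamp did not. Capitals mark GGCGCC, the core of an element through which BMP signals act on hepcidin, and TTCNNNGAA, the element bound by STAT factors after interleukin 6. The Hamp stretch lies on the minus strand at chr7:30944030-30944179 and the Hamp2 stretch on the minus strand at chr7:30924182-30924331.
Hamp: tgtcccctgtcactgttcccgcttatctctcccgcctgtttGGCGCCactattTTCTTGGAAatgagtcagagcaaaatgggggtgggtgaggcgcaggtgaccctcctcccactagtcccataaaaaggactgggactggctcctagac
Hamp2: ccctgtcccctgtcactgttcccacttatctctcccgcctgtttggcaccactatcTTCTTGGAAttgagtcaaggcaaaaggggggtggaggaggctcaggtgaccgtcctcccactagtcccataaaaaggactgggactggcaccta
The stretches were identical at 135 of 147 aligned bases (91.8%), with 12 substitutions. Counted from 1 at the 5′ end of the Hamp stretch, the BMP core lies at bases 42 to 47 and the substitution G45A falls inside it, so that Hamp2 does not hold these letters there. The STAT element at bases 54 to 62 is shared. Whether any of these substitutions bears on the difference between Hamp and Hamp2 in FXR KO liver was not tested. Over windows from 250 bases before to 50 bases after the start, on either strand, GGCGCC was found in 11.9% of 32851 mouse promoters and TTCNNNGAA in 8.3%. Of the 7 genes of the set that had such a window, Hamp and Tfrc held the BMP core, and Alas1, Hamp and Hamp2 held the STAT element. The nuclear receptor hexamer AGGTCA, in 16.3% of promoters, was in that of Alas2, TGACNNNGC, the core of the antioxidant response element and in 12.4% of promoters, was in that of Bmp6, and AGGTCANTGACCT, the inverted repeat bound by FXR, was in none of the 7 and in 0.00913% of promoters. No overlap between motifs was found in these stretches, and a match is only a match of letters.

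The arrays gave the following general picture. Values are the deposited log2 expression values, whose array medians lay between 4.57 and 4.65, and the number of arrays limits the precision. Probe sets differ in response, so levels are compared only within a gene. The Nr1h4 probe set, for the gene that encodes FXR, read 9.97 ± 0.11 in FXR KO and 10.14 ± 0.12 in WT vehicle livers (SD, n = 6 each). Whether it lies in the deleted part is not given, so it does not check the labels. The FXR target Nr0b2 (SHP) does, at 3.97 ± 0.48 in FXR KO and 6.59 ± 0.51 in WT vehicle livers. WT vehicle array 6 stood apart from its group, with 532 genes differing over 2-fold from the average of its group mates, against 2 to 90 for each of the other 23 arrays, and results that rest on it are also given without it. The summed signal of hepatocyte markers was 46800 to 50850 on KO and 52840 to 56320 on WT arrays, and of the 8 measured 2 fell in KO under vehicle and 6 under OCA. Of 8 stellate cell markers 6 rose and 1 fell in either comparison, and of 5 cholangiocyte markers 3 rose under vehicle and 0 passed under OCA. Beside these counts, 15.4% of all genes rose and 12.1% fell in KO under vehicle, and 17.4% rose and 13.3% fell under OCA. Array names carry a code number whose meaning is not given: all KO OCA arrays and KO vehicle arrays 1 and 2 have number 9, KO vehicle arrays 3 to 6 and WT vehicle arrays 1 to 4 number 7, and all WT OCA arrays and WT vehicle arrays 5 and 6 number 5.

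**Figure D1:**
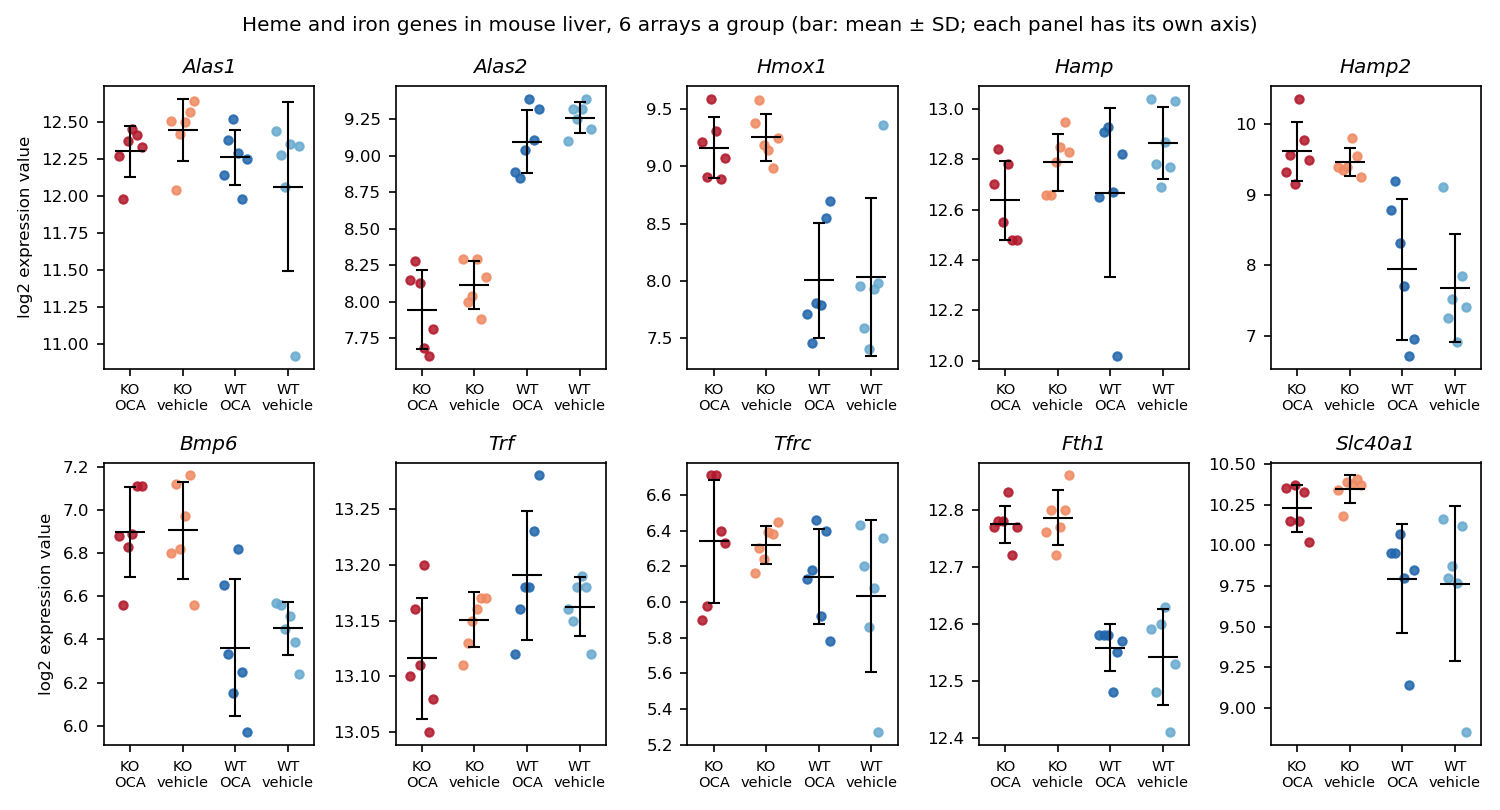
Log2 expression value of each gene on each array, by group, with the group mean ± SD (n = 6) as a bar; each panel has its own axis. For Alas2 all 12 FXR KO arrays lie below all 12 WT arrays, for Fth1 all 12 lie above, and for each of the other genes the genotypes overlap.

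Under vehicle, 5 of the 10 genes rose in FXR KO against WT liver, where 15.4% of all genes did, and 1 fell, where 12.1% did; over both directions 27.5% of all genes were called at an adjusted p under 0.05 in limma. The median log2 change of the 10 was 0.334, against -0.0287 over all genes. Under OCA again 5 rose and 1 fell, against backgrounds of 17.4% and 13.3% and of 30.7% in all, with a median of 0.207 against -0.023. The 2 comparisons use different arrays, and the called genes were the same 6 in each. Under OCA the code number follows the genotype, and with the number as a block 2 of the 6, Alas2 and Hmox1, were called there and 4 under vehicle.

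Alas2, the erythroid aminolevulinate synthase, fell in FXR KO liver by 1.15 on the log2 scale under vehicle, a level 2.22-fold lower than in WT. On FXR KO vehicle arrays it read 7.88 to 8.29 with a median of 8.10, and on WT vehicle arrays 9.10 to 9.39 with a median of 9.28. FXR KO livers given OCA read 7.63 to 8.28 with a median of 7.97, against 8.85 to 9.39 with a median of 9.07 in WT livers given OCA. The highest KO array was thus below the lowest WT array under either treatment, which 5.67% of all genes showed under vehicle, 7.48% under OCA and 2.9% over all 12 arrays of each genotype. The change was -1.15 ± 0.11 (SE) with an adjusted p of 1.13e-08 under vehicle and -1.15 ± 0.11 with 9.96e-09 under OCA. Within code number 7 alone, with 4 arrays of each genotype, it was -1.15 with an adjusted p of 1.89e-05.

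Few red cell markers passed the test beside Alas2. Of 15 erythroid markers 7 were measured, and Tspan33, a tetraspanin of erythroid progenitors, and Klf1, an erythroid transcription factor, fell under vehicle, by 1.27 (adjusted p 7.96e-06) and 0.38 (0.0277) on the log2 scale. These 2 of 7 stand beside 12.1% of all genes that fell and 27.5% called in either direction. Both fell under OCA as well, by 1.31 (adjusted p 4.41e-06) and 0.49 (0.00404), where 13.3% of all genes fell. Hemgn, Ermap, Gata1, Slc4a1 and Epb42 were not called (adjusted p 0.212 to 0.899). The median log2 change of the 7 was -0.148, and their summed signal was 108.1 to 128 in KO and 143.2 to 212.1 in WT vehicle livers. These sums are low for 7 genes. Some of the markers may lie near background, and a sum may rest on few of them. The globin genes had no probe set with a single symbol here, so blood left in the tissue was not measured by them. In bulk liver, fewer cells of a type and less RNA per cell cannot be told apart, and the part of red cells in the Alas2 difference was not tested.

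Alas1, the rate-limiting enzyme of heme synthesis in hepatocytes, did not pass the test. It read 12.04 to 12.64 (median 12.50) on FXR KO vehicle arrays and 10.92 to 12.44 (median 12.31) on WT vehicle arrays, and 11.98 to 12.45 (median 12.35) in KO against 11.98 to 12.52 (median 12.27) in WT livers given OCA. The groups overlapped, and the low end in WT was WT vehicle array 5 alone, at 10.92 against 12.06 for the next. The difference of KO from WT was 0.38 ± 0.18 under vehicle (95% interval 0.02 to 0.75, adjusted p 0.114) and 0.04 ± 0.18 under OCA (0.904). Without WT vehicle array 5 the vehicle value was 0.15 (0.313).

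The other steps of heme synthesis showed small changes in both directions. Of the 8 enzymes measured, Alas1 and Alas2 included, 3 rose and 2 fell in FXR KO liver under vehicle, and 1 rose and 3 fell under OCA. The shares over all genes were 15.4% higher and 12.1% lower under vehicle, and 17.4% and 13.3% under OCA. Their median log2 change was 0.0712 under vehicle and -0.0177 under OCA. Alad, the enzyme of the step after aminolevulinate synthase, rose by 0.35 ± 0.08 (adjusted p 0.00226) under vehicle. Uros, which closes the tetrapyrrole ring, rose by 0.31 ± 0.08 (0.0037) under vehicle and by 0.35 ± 0.08 (0.00105) under OCA. Ppox, an oxidase of the late mitochondrial steps, rose by 0.23 ± 0.07 (0.0182) under vehicle. Urod, the decarboxylase of uroporphyrinogen, fell by 0.15 ± 0.06 (0.0476) under vehicle and by 0.30 ± 0.06 (0.000164) under OCA, and Fech, which inserts the iron, fell by 0.17 ± 0.05 (0.0162) under OCA. With each array centred on its median 0 of the 8 rose and 4 fell in either comparison, so the rises of this size depend on the scaling.

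Of 10 genes listed as regulators of Alas1 or as targets of the xenobiotic receptor CAR, 7 were measured, and CAR itself (Nr1i3) was not among them. The 4 Cyp genes of this list rose in KO under vehicle. Cyp2b9 was 7.40 ± 0.38 (adjusted p 8.66e-14), Cyp2b13 7.25 ± 0.18 (3.45e-20), Cyp2c55 4.52 ± 0.18 (7.39e-16) and Cyp2b10 4.13 ± 0.39 (6.94e-09) log2 units above WT. The part of CAR in these rises was not tested. Ppargc1a, a coactivator that raises Alas1 in fasting, fell by 0.61 ± 0.13 (0.000622), and Foxo1, which acts with it, by 0.48 ± 0.11 (0.000963). Nr1i2 (PXR), another xenobiotic receptor, fell by 0.29 ± 0.08 (0.00867) under vehicle and by 0.69 ± 0.08 (2.13e-07) under OCA. The 7 measured genes were called, 4 higher and 3 lower, in each of the 2 comparisons of genotypes. Over both directions 27.5% of all genes were called under vehicle and 30.7% under OCA. The Cyp2b genes are close copies whose probe sets may share signal.

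Hmox1, which splits heme into biliverdin, carbon monoxide and iron, rose 2.33-fold in FXR KO liver under vehicle. KO vehicle arrays read 8.99 to 9.58 with a median of 9.22, and WT vehicle arrays 7.41 to 9.36 with a median of 7.95. With OCA, KO livers read 8.89 to 9.59 (median 9.14) and WT livers 7.46 to 8.70 (median 7.80). The WT vehicle value of 9.36 belongs to array 6, the array that stood apart, and the next WT vehicle value was 7.98, so the vehicle groups overlapped through that array alone. The groups given OCA did not overlap, as for 10.9% of all genes with KO above WT. The log2 change was 1.22 ± 0.24 (adjusted p 0.000355) under vehicle, 1.48 (8.28e-07) without WT vehicle array 6, 1.42 (2.68e-05) within code number 7, and 1.16 ± 0.24 (0.000512) under OCA.

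Of the biliverdin reductases, Blvrb rose and Blvra, which acts on the alpha form that Hmox1 makes, did not pass the test. Blvrb, which reduces the beta form, was higher in KO by 0.80 ± 0.08 (adjusted p 1.67e-08) under vehicle and by 0.74 ± 0.08 (6.48e-08) under OCA. Blvra, the main biliverdin reductase of adult liver, changed by 0.02 (0.904) under vehicle and by -0.19 (0.0633) under OCA, and it was named after its value was seen. A list of 10 genes for NRF2 and BACH1 holds genes that share this control with Hmox1 and the regulators Nfe2l2, Keap1 and Bach1 themselves. Of these 10, 8 rose and 1 fell under vehicle, where 15.4% and 12.1% of all genes did. Their median log2 change was 0.518. Srxn1 (sulfiredoxin) rose by 1.57 ± 0.10 (9.53e-12), Nqo1 (a quinone reductase) by 1.45 ± 0.16 (1.22e-07) and the NRF2 gene Nfe2l2 by 0.72 ± 0.12 (3.44e-05), and Bach1, the heme-sensing repressor of Hmox1, fell by 0.56 ± 0.10 (0.000138). Under OCA 7 rose and 1 fell, where 17.4% and 13.3% of all genes did. The smallest of the 8 rises under vehicle, 0.20, was close to the 0.166 by which centring lowers all such changes. The part of NRF2 or BACH1 in the Hmox1 difference was not tested.

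Kupffer cells hold much Hmox1, and most of their markers were higher in KO as well. Of the 12 Kupffer markers, all measured, 8 rose under vehicle and 10 under OCA, and none fell. The share of all genes that rose was 15.4% under vehicle and 17.4% under OCA. Without WT vehicle array 6 the count of Kupffer markers under vehicle was 10. Cd68, a lysosomal protein of macrophages, rose by 1.52 ± 0.16 (adjusted p 5.89e-08), Vsig4, a complement receptor of Kupffer cells, by 1.01 ± 0.19 (0.000204) and Clec4f, a lectin found on Kupffer cells, by 0.47 ± 0.09 (0.0002) under vehicle. Adgre1, Folr2, Marco and Timd4 were not called under vehicle (adjusted p 0.0518 to 0.961), nor were Marco and Timd4 under OCA. These were named after their values were seen. The summed signal of the 12 markers was 5559 to 6399 in KO and 2657 to 5098 in WT vehicle livers, and 5348 to 9164 in KO and 2236 to 5412 in WT livers given OCA. The highest sum of the WT vehicle group was that of array 6, which also had the highest Hmox1, and the highest sum of the WT OCA group was that of array 6, with Hmox1 at 8.70, again the highest of its group. Other arrays did not follow that order: the highest Hmox1 of the KO vehicle group, 9.58 in array 2, had a sum of 5607 and its highest sum, 6399 in array 3, had Hmox1 at 9.19, and WT OCA array 5 had Hmox1 at 8.55 with a sum of 2631. All 6 measured markers of infiltrating macrophages rose in both comparisons, Gpnmb by 3.42 ± 0.11 (1.14e-17) under vehicle. The part of macrophages in the Hmox1 difference was not tested.

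**Figure D2:**
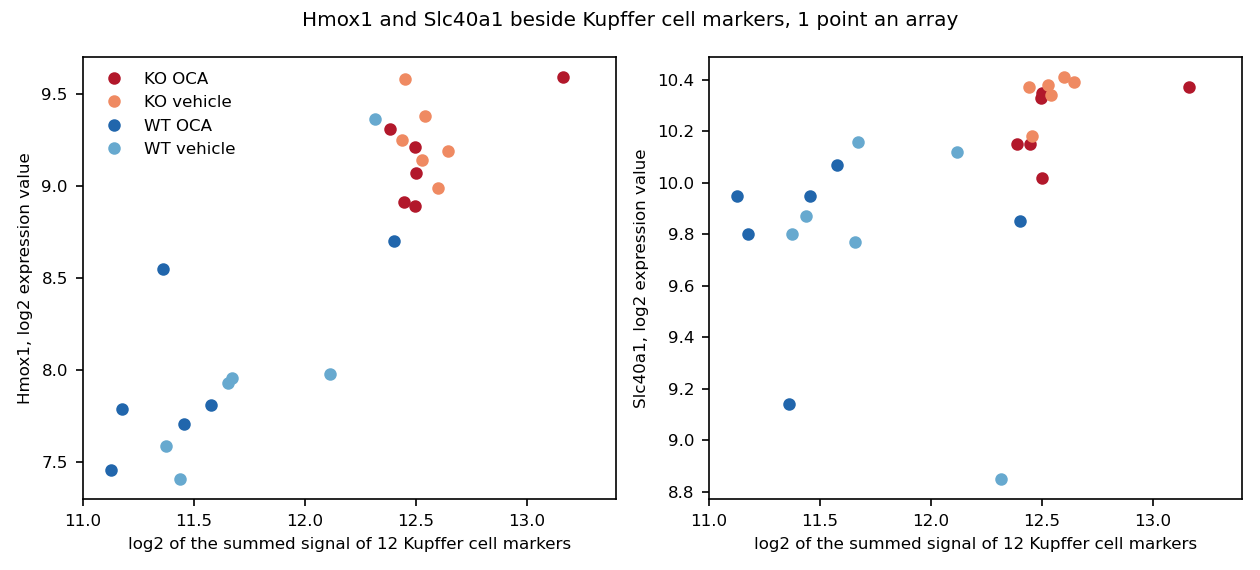
Hmox1 (left) and Slc40a1 (right) as log2 expression values against the log2 of the summed signal of 12 Kupffer cell markers, 1 point per array, coloured by group. The KO arrays lie at high marker sums and high Hmox1, and WT vehicle array 6, at a marker sum of 5098, has Hmox1 at 9.36 among the KO arrays but Slc40a1 at 8.85, the lowest of all 24.

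Genes that bind or carry heme went in both directions, with 4 of 13 higher and 4 lower in KO under vehicle, and 5 higher and 4 lower under OCA. For all genes the shares were 15.4% higher and 12.1% lower under vehicle, and 17.4% and 13.3% under OCA. Slc48a1 (HRG1), which moves heme out of the lysosome in macrophages that digest red cells, rose by 1.39 ± 0.07 (adjusted p 9.94e-14) under vehicle and 1.48 ± 0.07 (2.78e-14) under OCA. Cd163, the macrophage receptor for hemoglobin bound to haptoglobin, fell by 1.38 ± 0.19 (3.75e-06) and 1.07 ± 0.19 (9.48e-05), against the direction of the Kupffer markers. Slc25a38, which brings glycine into mitochondria for heme synthesis, fell by 0.48 ± 0.06 (9.73e-07) under vehicle. The heme and hemoglobin scavengers of plasma, Hpx and Hp, changed by 0.01 (0.911) and less than 0.01 under vehicle; both were named after their values were seen.

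Hamp2 had the highest fold change of the 10 genes, at 3.43-fold in FXR KO over WT liver under vehicle. It is the neighbouring copy of the hepcidin gene in mice, and the action of hepcidin on ferroportin is ascribed to the product of Hamp. KO vehicle arrays read 9.25 to 9.81 with a median of 9.40, and WT vehicle arrays 6.92 to 9.11 with a median of 7.47. KO livers given OCA read 9.16 to 10.36 (median 9.53) and WT livers given OCA 6.72 to 9.19 (median 8.01). Every KO array was above every WT array under vehicle, as for 9.4% of all genes, while under OCA WT array 2 at 9.19 was just above the lowest KO array at 9.16. The log2 change was 1.78 ± 0.35 (adjusted p 0.000335) under vehicle, 1.80 (0.00698) within code number 7, and 1.67 ± 0.35 (0.000561) under OCA. With the code number as a block it was not called under OCA (1.73, 0.21).

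Hamp itself read 12.66 to 12.95 (median 12.81) on KO vehicle arrays and 12.69 to 13.04 (median 12.83) on WT vehicle arrays. Under OCA it read 12.48 to 12.84 (median 12.62) in KO and 12.02 to 12.93 (median 12.75) in WT livers, where array 5 was the low value at 12.02 and the next was 12.65. The groups overlapped throughout. Hamp lay near the top of the scale, with a mean above that of 99.9% of all genes, and whether this hid a change was not tested. The difference of KO from WT was -0.08 ± 0.11 under vehicle (95% interval -0.31 to 0.16, adjusted p 0.674) and -0.03 ± 0.11 under OCA (0.881). The interval under vehicle lies wholly below that of Hamp2, which ran from 1.06 to 2.50; the 2 probe sets belong to close copies and may share signal. Among the measured genes in order on chromosome 7 the copies stand side by side. Near them Cd22 (0.66, 0.000201) and Fxyd5 (0.88, 2.33e-06) rose and Usf2 (-0.28, 0.000709) fell under vehicle, and Mag, Lsr and Fam187b did not pass the test; these neighbours were taken by position.

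The spread between mice of a group was wide for Hamp2 in WT livers. Its SD within groups was 0.329 in KO and 0.887 in WT livers, where only 51 of 18820 genes had a larger SD, and the median over all genes was 0.141 in KO and 0.176 in WT. Hmox1 (0.238 in KO and 0.601 in WT), Alas1 (0.191 and 0.426) and Slc40a1 (0.117 and 0.411) were also wider in WT livers, and each of these 3 holds a WT array that stood apart. Trf (0.042 and 0.045) and Fth1 (0.041 and 0.066) varied less than nearly all genes. These SDs are descriptions and were not tested.

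**Figure D3:**
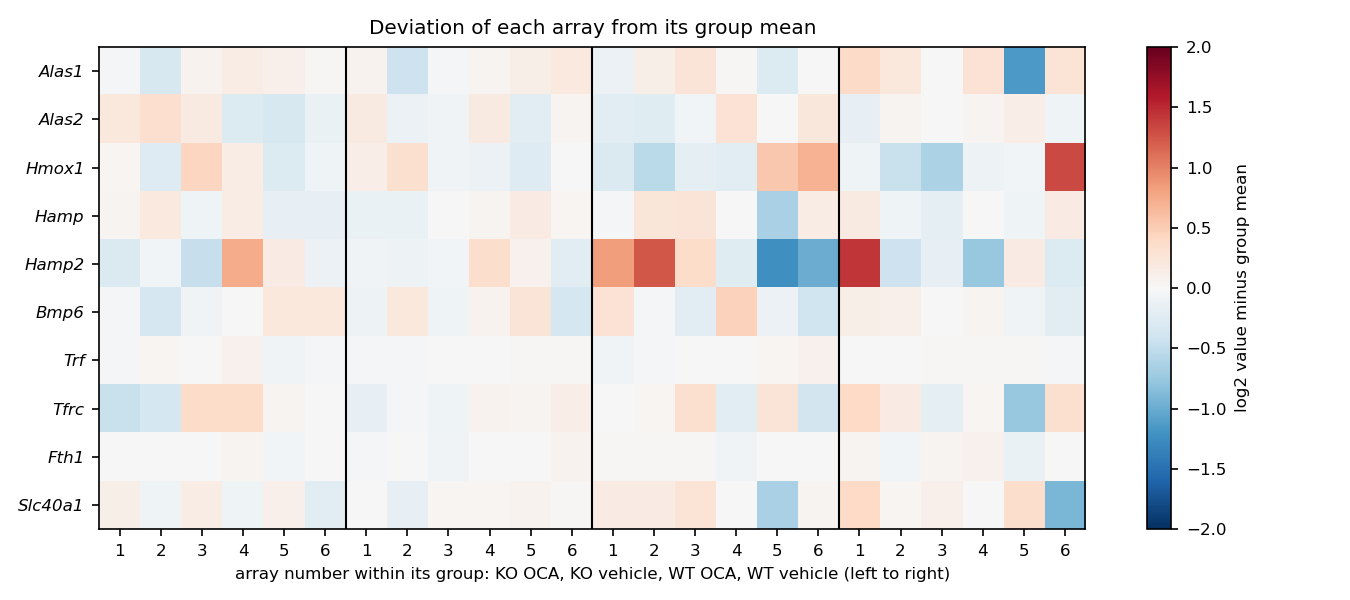
Log2 value minus the group mean for each gene (rows) and each array within its group (columns; red above, blue below the mean). Hamp2 has the widest deviations, most of them in WT livers, WT vehicle array 5 is low for Alas1, and WT vehicle array 6 is high for Hmox1 and low for Slc40a1.

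Bmp6, the ligand that reports liver iron to hepatocytes, rose 1.37-fold in FXR KO liver under vehicle and 1.45-fold under OCA. It read 6.56 to 7.16 (median 6.90) on KO vehicle arrays and 6.24 to 6.57 (median 6.48) on WT vehicle arrays, and 6.56 to 7.11 (median 6.89) in KO against 5.97 to 6.82 (median 6.29) in WT livers given OCA. The ranges touched or overlapped in both comparisons. The log2 change was 0.45 ± 0.12 (adjusted p 0.00746) and 0.54 ± 0.12 (0.00154). It did not pass under vehicle with the code number as a block (0.36, 0.104) or after centring (0.29, 0.0539), but did within code number 7 (0.36, 0.0468), and under OCA it did not pass with the number block (0.25, 0.66). Of the 9 markers of sinusoidal endothelial cells, the main source of Bmp6, 2 fell under vehicle (Kdr and Oit3) and 2 rose under OCA (Stab1 and Fcgr2b). Among all genes 12.1% fell under vehicle and 17.4% rose under OCA. Their summed signal was 2892 to 3967 in KO and 3468 to 4537 in WT vehicle livers, and 3100 to 4344 in KO and 2949 to 3843 in WT livers given OCA.

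The wider set of genes that control hepcidin was split. Of 24 measured, 7 rose and 7 fell under vehicle with a median of 0.0133, and 4 rose and 6 fell under OCA with a median of -0.0391. Among all genes 15.4% rose and 12.1% fell under vehicle, and 17.4% rose and 13.3% fell under OCA. With the code number as a block 3 rose and 6 fell, and after centring 3 rose and 9 fell, under vehicle. Hjv (hemojuvelin), the coreceptor for Bmp6, rose by 0.67 ± 0.10 (adjusted p 1.11e-05) and 0.87 ± 0.10 (2.02e-07). Il6ra, the receptor chain through which interleukin 6 drives hepcidin, fell by 1.22 ± 0.12 (2.79e-08) and 1.36 ± 0.12 (3.69e-09). Tfr2, which senses iron-loaded transferrin, fell by 0.26 ± 0.06 (0.00161) and 0.38 ± 0.06 (1.86e-05). Smad9 fell by 1.04 ± 0.24 (0.00154) and 1.08 ± 0.24 (0.000951), and Smad4, the shared partner of the BMP-regulated Smads, by 0.22 ± 0.05 (0.000802) under vehicle. Id1, a classical BMP target, rose by 0.66 ± 0.16 (0.00323) under vehicle and changed by 0.09 (0.722) under OCA. Under vehicle the targets Smad7 (0.11, 0.722), Smad6 and Atoh8 and Tmprss6, the protease that cuts hemojuvelin (-0.03, 0.704), did not pass, and Tmprss6 fell by 0.15 (0.036) under OCA; these 5 were named after their values were seen.

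**Figure D4:**
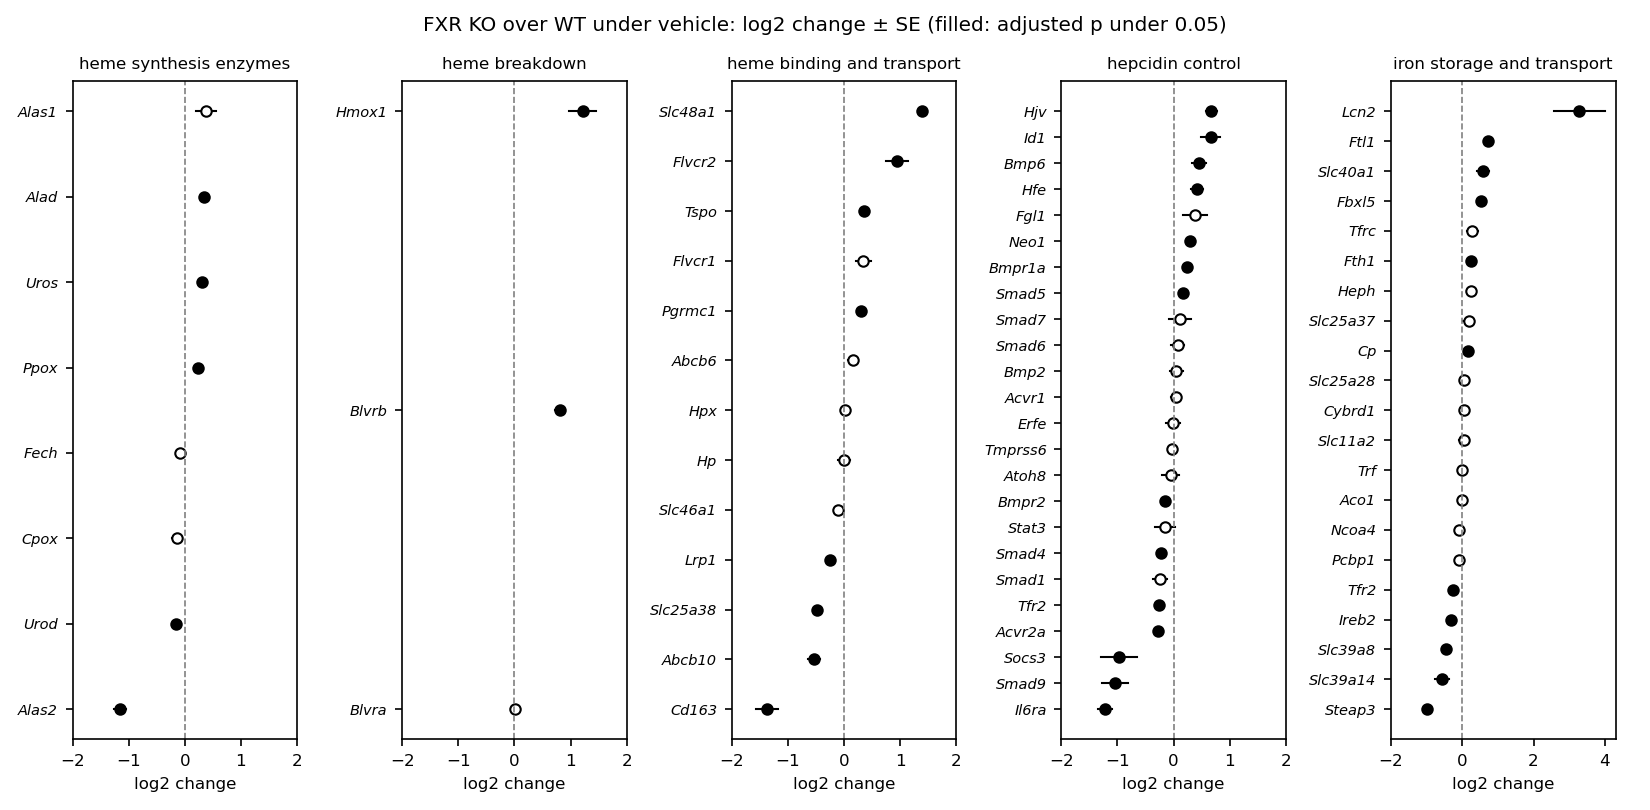
Log2 change ± SE of FXR KO over WT under vehicle for the measured genes of 5 lists, 1 panel a list, filled where the adjusted p was under 0.05. Calls lie on both sides of 0 in 4 of the panels; the exception is heme breakdown, with Hmox1 and Blvrb higher.

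Slc40a1 (ferroportin), the iron exporter of Kupffer cells and hepatocytes, rose 1.50-fold in FXR KO liver under vehicle. KO vehicle arrays read 10.18 to 10.41 with a median of 10.38 and WT vehicle arrays 8.85 to 10.16 with a median of 9.84. These groups did not overlap, as for 9.4% of all genes with KO above WT under vehicle. KO livers given OCA read 10.02 to 10.37 (median 10.24) and WT livers given OCA 9.14 to 10.07 (median 9.90), with a small overlap. The log2 change was 0.58 ± 0.16 (adjusted p 0.0079) under vehicle, 0.40 (0.0128) without WT vehicle array 6 and 0.49 (0.00288) within code number 7, and it lost the call with the number as a block (0.49, 0.0743). Under OCA it was 0.43 ± 0.16 (0.0444), a call lost in 14 of 24 alternatives, and without WT OCA array 5 it was 0.30 (0.137).

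The lowest Slc40a1 value of each WT group was in the liver with the highest acute phase signal of that group. In WT vehicle array 6 Slc40a1 was 8.85 and the summed signal of 12 acute phase genes, which interleukin 6 induces along with hepcidin, was 66490, against 36220 to 37210 in the other 5 arrays. In WT OCA array 5 Slc40a1 was 9.14 and the sum 56660, against 36210 to 47320 in the other 5. That array also had the lowest Hamp (12.02) and Hamp2 (6.72) of its group, while WT vehicle array 6 had Hamp at 13.03 and Hamp2 at 7.41. WT OCA array 6, with a sum of 47320, had Slc40a1 at 9.85. In KO livers, where Slc40a1 was higher, the sum was 41600 to 48230 under vehicle and 42010 to 49630 under OCA. The KO vehicle sums were above those of the other 5 WT vehicle arrays. The KO OCA sums were above those of WT OCA arrays 1 to 4 (36210 to 38580) and below that of array 5, and array 6 lay among them. The 2 lowest WT values of Slc40a1 are those of 2 mice, chosen after they were seen, and a link of Slc40a1 to this sum was not tested. Of these 12 genes 2 rose and 3 fell in KO against WT under vehicle, with a median log2 change of -0.0645. Among all genes 15.4% rose and 12.1% fell. Most Kupffer markers, whose sums are given above, were higher in KO together with Slc40a1, and their part in its difference was not tested.

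Fth1, the ferritin heavy chain, rose slightly and without overlap between genotypes. It read 12.72 to 12.86 (median 12.78) on KO vehicle arrays and 12.41 to 12.63 (median 12.56) on WT vehicle arrays, and 12.72 to 12.83 (median 12.77) in KO against 12.48 to 12.58 (median 12.58) in WT livers given OCA. All 12 KO arrays lay above all 12 WT arrays, as for 5.96% of all genes. The log2 change was 0.24 ± 0.05 (adjusted p 0.000235) under vehicle, 0.21 (0.046) within code number 7 and 0.22 ± 0.05 (0.000766) under OCA. With the code number as a block it was 0.12 (0.553) under OCA and not called. Its second probe set was not kept because its mean was lower, at 5.56 against 12.66 and near the median gene at 5.28. That probe set also rose, by 0.30 ± 0.09 (0.0221) and 0.53 ± 0.09 (0.000143) among all probe sets. After centring, the kept probe set changed by 0.08 (0.192) under vehicle and 0.02 (0.677) under OCA. Centring lowers all changes of KO against WT by 0.166 and 0.191, since the median of the named genes, though not of all probe sets, was higher on KO arrays (5.318 to 5.383) than on WT arrays (5.139 to 5.229). Ferritin heavy chain has many processed pseudogenes, whose signal may be shared.

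Transferrin and its receptor did not pass the test. Trf read 13.11 to 13.17 (median 13.16) in KO and 13.12 to 13.19 (median 13.17) in WT vehicle livers, and 13.05 to 13.20 (median 13.10) in KO against 13.12 to 13.28 (median 13.18) in WT livers given OCA, near the top of the scale. The differences were -0.01 ± 0.04 (adjusted p 0.881) and -0.07 ± 0.04 (0.212); only after centring was Trf called, at -0.18 (0.00233) and -0.26 (3.59e-05). Tfrc, which takes transferrin into cells, read 6.16 to 6.45 (median 6.34) in KO and 5.27 to 6.43 (median 6.14) in WT vehicle livers, and 5.90 to 6.71 (median 6.37) in KO against 5.78 to 6.46 (median 6.15) in WT livers given OCA. The ranges overlapped, and the differences were 0.29 ± 0.17 (0.216; 95% interval -0.06 to 0.63) and 0.20 ± 0.17 (0.402).

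The 17 other iron genes measured showed calls on both sides, with 4 higher and 5 lower in each comparison of genotypes. For all genes the shares were 15.4% higher and 12.1% lower under vehicle, and 17.4% and 13.3% under OCA. Ftl1, the ferritin light chain, rose by 0.73 ± 0.08 (adjusted p 3.69e-08) under vehicle and 0.51 ± 0.08 (7.93e-06) under OCA, together with Fth1. Fbxl5, the ligase subunit that clears iron regulatory protein when iron is high, rose by 0.52 ± 0.06 (1.63e-07) and 0.57 ± 0.06 (3.44e-08). Steap3, which reduces iron in endosomes after uptake by Tfrc, fell by 1.00 ± 0.09 (3.57e-09) and 1.21 ± 0.09 (1.21e-10). Slc39a8, an importer of iron and other metals, fell by 0.45 ± 0.09 (0.000494) under vehicle. Lcn2, which binds the iron carriers of bacteria and is also an acute phase gene, rose by 3.28 ± 0.72 (0.000944) and 2.88 ± 0.72 (0.00276).

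OCA was set against vehicle within each genotype, the question of whether FXR activation moves these genes. None of the 10 was called in WT liver, where 0.0691% of all genes were, nor in FXR KO liver, where 0.0159% were. In WT liver the change was 0.20 ± 0.18 for Alas1 (adjusted p 0.793), -0.16 ± 0.11 for Alas2 (0.693), -0.03 ± 0.24 for Hmox1 (0.979) and -0.20 ± 0.11 for Hamp (0.628). Hamp2 changed by 0.26 ± 0.35 (0.871), and its 95% interval ran from -0.46 to 0.99. The other 5 changed by -0.09 to 0.11. In KO liver all 10 had adjusted p-values of at least 0.986. At an unadjusted p under 0.05, 1782 genes passed in WT and 968 in KO liver, with none of the 10 among them.

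The effect of OCA was then compared between the genotypes by the interaction term. None of the 18820 genes passed (0%), and 1140 did at an unadjusted p under 0.05. For Alas1 the difference of the OCA effect in KO from that in WT was -0.34 ± 0.25 (adjusted p 0.87), and for the other 9 the adjusted p was at least 0.87 as well. Among genes that FXR controls, Nr0b2 (1.41 ± 0.25, 0.0244), Slc51b, a bile acid exporter subunit (1.02 ± 0.13, 0.000699), and Cyp8b1 (-1.28 ± 0.14, 3.74e-05) passed for OCA in WT liver, and Abcb11 (0.18, 0.691) and Cyp7a1 (-0.67, 0.568) did not. In the interaction Nr0b2 (-1.21 ± 0.36, 0.495) and Slc51b (-0.89 ± 0.19, 0.168) did not pass either.

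**Figure D5:**
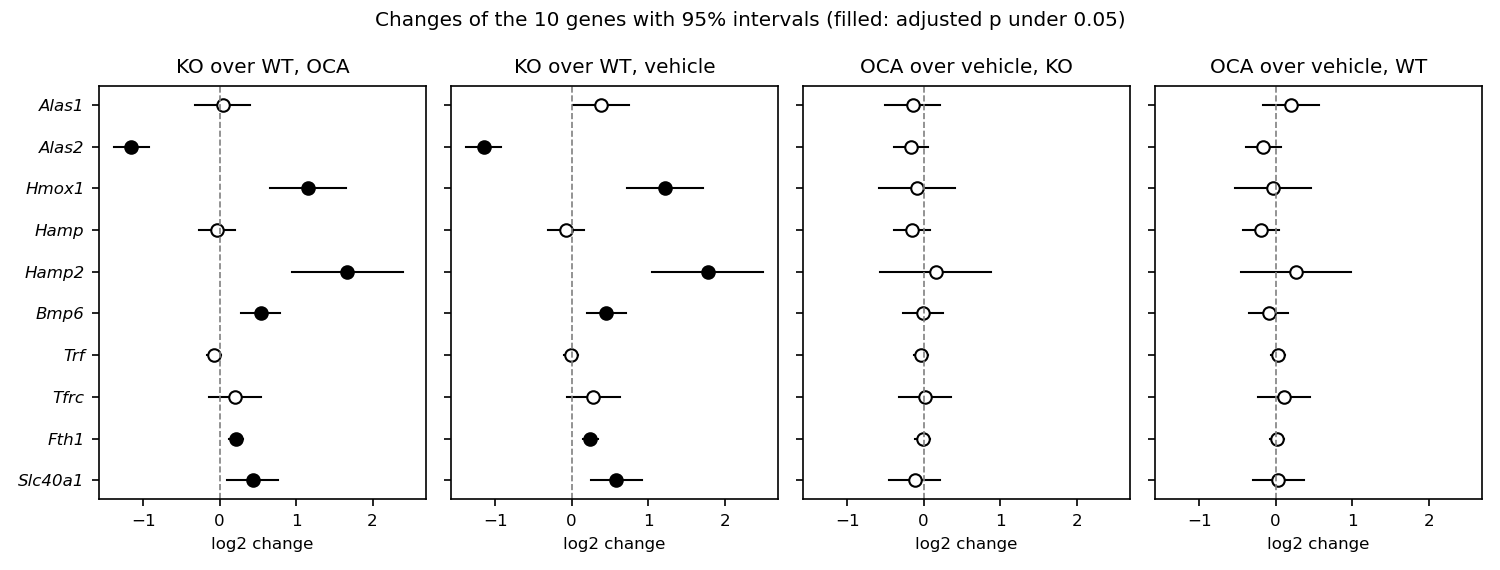
Log2 change of each of the 10 genes with its 95% interval in 4 comparisons, filled where the adjusted p was under 0.05. Filled in both comparisons of KO over WT are 6 genes, with Alas2 at -1.15 on the left side, and no gene is filled in the comparisons of OCA over vehicle.

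Genes with the most similar profiles over the 24 arrays were found for the 5 members whose group means differed by at least 0.5, by the root mean square difference after centring each gene on its mean, and 3 are named for each. Nearest to Alas2 were Cyp2c67 (0.171), Slco2a1 (0.173) and Ranbp10 (0.184). Slco2a1, a prostaglandin transporter, averaged 8.60 in KO and 9.89 in WT vehicle livers. Nearest to Hmox1 were Ms4a6d (0.254), Ms4a6c (0.256) and Mpeg1 (0.259); Mpeg1, a macrophage pore protein, averaged 9.32 in KO and 8.06 in WT vehicle livers. Nearest to Hamp2 were Slco1a4 (0.367), Abcd2 (0.424) and Mgst3 (0.473), with Slco1a4, an uptake transporter of organic anions, at 10.53 in KO and 8.70 in WT vehicle livers. For Slc40a1 they were Kif16b (0.168), Fam89b (0.168) and Myorg (0.175), and for Bmp6 Fggy (0.161), Laptm4b (0.171) and Abcb9 (0.171). The profiles span the genotype difference, in which many genes were called, and no shared control is read from them.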

How the data were processed

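Liver RNA of 24 mice was measured on whole-transcript arrays. The deposited values are on a log scale, taken as log2 from their range of 0.87 to 13.6; they are RMA values by the authors, per the submitters' processing notes, with no version given in the sources used here. Of 35556 probe sets 21218 had 1 symbol in GEO's probe table, 1881 had several and 12457 had no entry in it. For 21185 probe sets the gene number was found in RefSeq (GRCm38.p6), and the symbol given there was used, whether or not it differed. The probe set with the highest mean per gene was kept, giving 18820 genes.

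A mean per group was fitted by limma 3.58.1 in R 4.3.3 (20 residual and 4.46 prior degrees of freedom), with Benjamini-Hochberg adjustment over 18820 genes and calls at an adjusted p under 0.05. Fits were tested on simulated data. Promoter matching and figures used Python 3.11.15 and matplotlib 3.10.9.

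The members and all lists were chosen with earlier results of these data known. Named were the 10 members, 3 check genes, up to 6 called genes per list and comparison by smallest p, and 3 profile neighbours for members whose group means differ by 0.5; others are marked. Alternatives were centring, quantile normalization, array weights, a fit of only the groups compared, robust eBayes with a trend, a filter at the median gene, code number or letter as a block, code numbers alone, no arrays with names ending in _2, a replicate block, all probe sets, the mean of probe sets, and leaving out each array. Added after seeing the data were fits without WT vehicle array 6 under the number block and list counts under 5 settings.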

Additional observations from a re-analysis of the deposited data

Results flagged for a closer look

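Within groups of 6 arrays, 40 sets of values were checked for an array far from the other 5, and 8 held one; chance gives about 1 in 20. In FXR KO vehicle livers array 2 was the lowest for Alas1, at 12.04 with the nearest at 12.42, and for Slc40a1, at 10.18 with the nearest at 10.34. In WT OCA livers array 5 was the lowest for Hamp, at 12.02 with the nearest at 12.65, and for Slc40a1, at 9.14 with the nearest at 9.80. Fth1 was lowest in WT OCA array 4, at 12.48 with the nearest at 12.55. In WT vehicle livers array 5 was the lowest for Alas1, at 10.92 with the nearest at 12.06. WT vehicle array 6 was the highest for Hmox1, at 9.36 with the nearest at 7.98, and the lowest for Slc40a1, at 8.85 with the nearest at 9.77. No cause of these values was tested.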

How the results depend on the processing

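Of 1380 values of the 10 genes under the alternatives, 1353 kept their direction and side of the threshold or changed sign only between uncalled values (91), 23 lost and 4 gained a call, and 0 called values reversed. Leaving out each array in turn left 6 of the 10 called for FXR KO against WT under vehicle, 5 to 6 under OCA, and 0 for OCA in either genotype and for the interaction. With the code number as a block 2 of the 10 were called for KO against WT under OCA, Alas2 (-1.16, adjusted p 0.00551) and Hmox1 (1.76, 0.0184), while Hamp2 (1.73, 0.21), Fth1 (0.12, 0.553), Slc40a1 (0.14, 0.863) and Bmp6 (0.25, 0.66) were not, and 2334 genes were called in all against 5780; no code number holds both genotypes given OCA, so number and genotype are linked only through vehicle arrays. With the number block and without WT vehicle array 6, 1 gene, Alas1, was called for OCA in WT liver (1.34, 0.00107; 77 genes in all) and 1, Alas1, for the interaction (-1.31, 0.0267; 12 genes in all), which sets WT OCA livers against WT vehicle array 5 alone within its number. Over all genes, OCA in WT liver gave 13 calls, with 2 to 667 over the alternatives (667 with the number block, 2 without WT OCA array 5, 21 without WT vehicle array 5), OCA in KO liver 3 with 0 to 11, and the interaction 0 with 0 to 34. With centring, 10130 and 11099 genes were called for KO against WT under vehicle and OCA, 17.5% and 16.9% of them higher in KO, against 56.1% and 56.7% without it and 46.9% and 46.6% with quantile normalization. The replicate block left 6 genes called for KO against WT under vehicle and 6 under OCA and 0 elsewhere; replicate numbers did not pair the arrays, with correlations of same-numbered deviations of -0.035 to 0.062 for KO and WT under vehicle and -0.039 to 0.17 for OCA in WT liver. Detection calls were not used here, so low values may be background.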
